A study of Mus musculus with 79 samples.

Results

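Imprinted genes are transcribed mainly from the allele of 1 parent, and 10 of them with a known place in brain biology were followed here: Snrpn, Ndn, Ube3a, Meg3, Rian, Mirg, Kcnq1ot1, Igf2, Peg3 and Nnat. The list was drawn up by name, but 2 of its genes, Snrpn and Kcnq1ot1, came from the study's display of its most changed genes in these same libraries. Each symbol was matched to 1 Ensembl identifier of the count table, so that all 10 were found among 55471 counted genes. RNA-seq was carried out on 79 libraries of bulk tissue from 40 male wild-type CD-1 mice, with 39 libraries from the medial prefrontal cortex (mPFC) and 40 from the ventral hippocampus (vHipp). CSDS mice were exposed to chronic social defeat stress for 21 days at an age of 9 to 10 weeks, CTRL mice were non-defeated controls, and mice of both kinds received either saline or a single intraperitoneal injection of 10 mg/kg ketamine, a glutamate receptor antagonist with antidepressant action. Tissue was collected 7 days after the injection. Each of the 8 groups held 10 mice, except the mPFC of ketamine-treated CSDS mice with 9, and within a region each library came from a separate mouse. Both regions were obtained from 39 of the mice. Both tissues were taken as punches from frozen slices.

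At an imprinted locus, DNA methylation laid down differently in egg and sperm silences genes on 1 of the parental chromosomes, and neighbouring genes often sit in clusters under a shared control region. The clusters of this report are known from human and mouse genetics: loss of the paternally expressed genes around Snrpn and Ndn underlies Prader-Willi syndrome, and loss of the maternal copy of Ube3a in neurons underlies Angelman syndrome. Imprinted genes act in growth, in maternal and feeding behaviour and in neuronal differentiation, and many of them are strongly transcribed in neurons. The counts analysed here do not separate the parental alleles, so every value below is the sum of both.

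Snrpn (chr7:59982495-60140219, minus strand, build GRCm38) encodes a splicing protein, Ndn (chr7:62346569-62350262, plus strand) encodes the neuronal growth suppressor necdin, and both are paternally expressed. Ube3a (chr7:59228750-59311536, plus strand) encodes a ubiquitin ligase that neurons take from the maternal chromosome. On chromosome 12 the maternally expressed noncoding RNAs Meg3 (chr12:109541001-109571726), Rian (chr12:109603808-109661716) and Mirg (chr12:109729764-109749460) lie in this order on the plus strand of the Dlk1-Dio3 domain. Kcnq1ot1 (chr7:143203458-143296549, minus strand) is a paternally transcribed long noncoding RNA that silences its neighbours in cis, and Igf2 (chr7:142650766-142666816, minus strand) encodes a paternally expressed growth factor. Peg3 (chr7:6703892-6730431, minus strand) encodes a zinc finger protein, and Nnat (chr2:157560078-157562522, plus strand) encodes the small membrane protein neuronatin, both from the paternal allele.

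The 3 promoters below belong to members whose level differed between the regions, Meg3 and Rian of the same cluster in one direction and Nnat in the other, and they show how unlike these start sites are. Each runs from 250 bases before to 50 bases after a RefSeq transcription start (build GRCm38.p6), and capitals mark the hexamer TGCCGC in either orientation, the motif to which the imprint-maintaining zinc finger protein ZFP57 binds when it is methylated.
Meg3 promoter, chr12:109540746-109541045, plus strand: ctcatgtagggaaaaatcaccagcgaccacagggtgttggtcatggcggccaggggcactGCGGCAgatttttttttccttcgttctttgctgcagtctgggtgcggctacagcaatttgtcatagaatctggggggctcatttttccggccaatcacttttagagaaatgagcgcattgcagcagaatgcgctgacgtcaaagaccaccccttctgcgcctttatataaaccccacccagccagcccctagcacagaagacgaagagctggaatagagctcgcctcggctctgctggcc
Rian promoter, chr12:109603695-109603994, plus strand: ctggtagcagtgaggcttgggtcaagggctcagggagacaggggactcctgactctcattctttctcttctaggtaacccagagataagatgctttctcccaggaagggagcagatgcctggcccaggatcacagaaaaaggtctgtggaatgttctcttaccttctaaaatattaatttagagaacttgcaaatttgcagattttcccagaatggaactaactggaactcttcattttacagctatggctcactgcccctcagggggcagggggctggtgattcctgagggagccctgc
Nnat promoter, chr2:157559828-157560127, plus strand: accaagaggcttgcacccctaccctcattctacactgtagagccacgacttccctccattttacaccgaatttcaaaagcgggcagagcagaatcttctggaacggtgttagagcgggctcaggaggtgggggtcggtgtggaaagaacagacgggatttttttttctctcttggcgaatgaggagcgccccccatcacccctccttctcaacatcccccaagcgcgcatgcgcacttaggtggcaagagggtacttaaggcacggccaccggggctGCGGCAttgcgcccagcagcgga
The Meg3 and Nnat promoters each held 1 such hexamer, both on the strand opposite to the one printed, with 13 and 17 CpG dinucleotides, whereas the Rian window held neither the hexamer nor a CpG. RefSeq listed 17 promoters for the 10 members, of which 4 contained the hexamer (1 each of Snrpn, Meg3, Igf2 and Nnat), against 11.6% of all 32851 promoters of the same length, and the median of all promoters was 7 CpG. These matches describe the letters in the window only.

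Mirg and Meg3 are also host transcripts of imprinted microRNAs. By RefSeq, 14 hairpins lie inside Mirg (4 of them inside its counted exons), 3 inside Rian and 1 (Mir770) inside Meg3. The GENCODE annotation also places Mir1906-1 in Meg3 exons. Sequences of 4 mature products from Mirg hairpins are shown because they are the regulatory cargo of a transcript whose level differed between the regions, with the seed (bases 2 to 8) in capitals and positions from RefSeq on build GRCm38.p6.
mmu-miR-134-5p, chr12:109734145-109734166, plus strand: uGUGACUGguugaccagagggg
mmu-miR-485-3p, chr12:109734946-109734967, plus strand: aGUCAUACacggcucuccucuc
mmu-miR-377-3p, chr12:109740553-109740574, plus strand: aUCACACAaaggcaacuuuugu
mmu-miR-410-3p, chr12:109743764-109743784, plus strand: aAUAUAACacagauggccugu
No seed was shared among these 4. The libraries were made from polyadenylated RNA, so the microRNAs themselves were not measured, and only the level of the host transcript is given below.

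The depth was 11726129 to 41767119 counts per library, with a median of 19638060. Marker genes separated the regions as labelled: the summed level of 6 hippocampal genes was 512.3 to 974.4 CPM (counts relative to the size of the library) in the vHipp and 85.69 to 302.6 in the mPFC, and that of 5 cortical genes 263.4 to 498.0 in the mPFC and 86.29 to 204.2 in the vHipp. A few libraries stood apart. Mouse 1, a ketamine-treated CSDS animal, had the lowest Ube3a in both regions, and the vHipp library of mouse 11 from the same treatment had the highest endothelial, mural, astrocyte and microglial sums of its region. The vHipp library of mouse 9, a CSDS animal on saline, had a choroid plexus sum of 714.0 CPM, where the next highest library was at 97.35, and Igf2 there was at 2.53 CPM. Results were therefore also obtained without mouse 1 and without each of these vHipp libraries.

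All 10 genes were counted in every library. Igf2 was the scarcest with 3 to 191 counts, and Meg3 the most abundant with 35769 to 155053. Divided by the length of the annotated exons, the mean level in the mPFC was 272.8 ± 28.8 CPM per kb (SD, n = 39) for Meg3 and 122.8 ± 10.2 for Snrpn. These led the order without overlap of their SDs, followed by Ndn (47.1 ± 5.40), Nnat (37.1 ± 11.9) and Peg3 (33.8 ± 5.33). The SD of Nnat overlapped those of both neighbours, whereas the SDs of Ndn and Peg3 did not overlap. Rian reached 18.7 ± 1.84, Ube3a 5.61 ± 1.32 and Mirg 3.52 ± 0.452 CPM per kb, and at the bottom Igf2 (0.457 ± 0.285) and Kcnq1ot1 (0.362 ± 0.0874) did not differ beyond their spread. In the vHipp, Meg3 (193.2 ± 24.0 CPM per kb, SD, n = 40), Nnat (168.1 ± 51.5) and Snrpn (135.3 ± 18.1) came first. There Nnat was within the spread of both neighbours, so that the main change in rank between the regions was the higher place of Nnat. Levels per kb rest on the annotated length, which for Kcnq1ot1 is a single exon interval of 93092 bases, and the annotated length of Rian (31981 bases) differs between annotation releases.

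**Figure D1:**
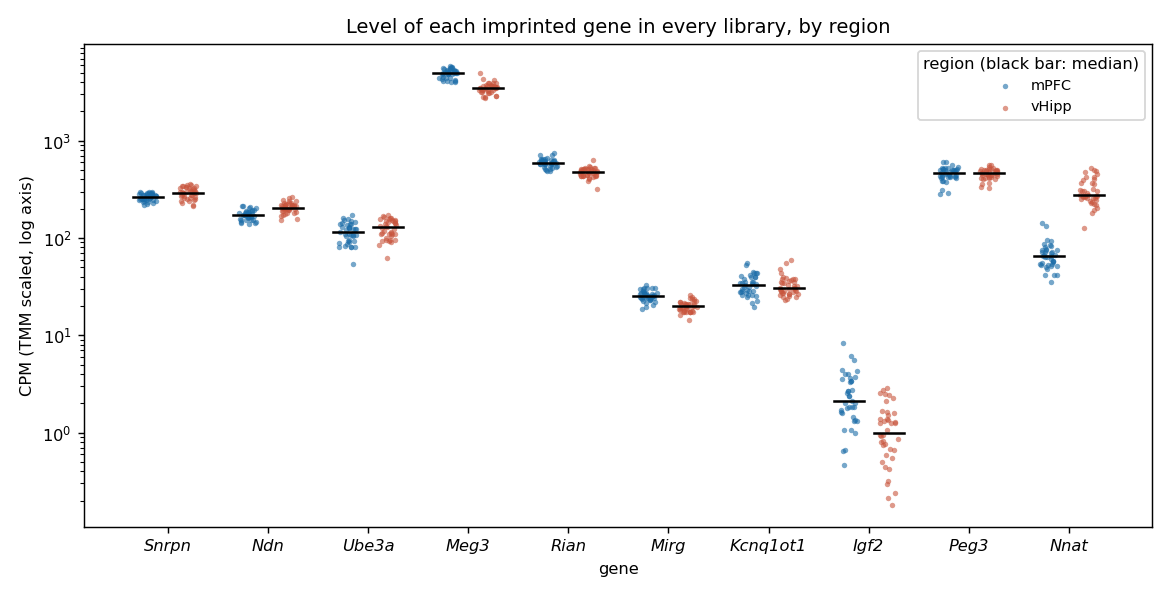
CPM (log axis, TMM scaled) of each imprinted gene in every library, with 39 mPFC points and 40 vHipp points per gene and a black bar at the median. The Nnat points of the regions are nearly separate, Meg3 shifts upward in the mPFC, and Igf2 is spread over the widest range.

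The comparison of the regions asked where each gene was more abundant. It was tested with edgeR's quasi-likelihood test (Benjamini-Hochberg adjustment over 31534 genes, threshold 0.05), the mean of the 4 groups being compared. Of all genes tested, 48.9% passed, 24.5% higher and 24.4% lower in the mPFC, and 7 of the 10 imprinted genes passed, 4 higher and 3 lower in the mPFC. The median log2 fold change of the members was 0.01, beside -0.00 over all genes.

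Nnat, which is known for its part in calcium handling and neuronal differentiation, was the gene with the largest regional difference among the members. Its level in the mPFC was 35.46 CPM in the lowest library, 64.58 at the median and 143.2 in the highest, against 126.96, 273.8 and 518.5 in the vHipp. The ranges therefore met only at their edges, and in all 39 mice with both regions the vHipp was higher, by 2.58-fold to 8.53-fold with a median of 4.19-fold. The log2 fold change of mPFC over vHipp was -2.18 (SE 0.0974), with an adjusted p of 4.66e-34. Blcap, which surrounds Nnat in its micro-imprinted domain, was also lower in the mPFC, by a smaller amount (-0.31, SE 0.0255, adjusted p = 9.1e-19).

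Igf2 differed in the other direction. Its mPFC level was 0.462 CPM in the lowest, 2.13 at the median and 8.35 in the highest library, and 0.181, 1.00 and 2.89 CPM in the vHipp, so that the ranges overlapped widely. It was higher in the mPFC of 30 of 39 mice, with a median ratio of 2.68 and a log2 fold change of 1.17 (SE 0.196, adjusted p = 2.89e-07). In adult brain Igf2 is known from the meninges and choroid plexus. Of 10 genes of meningeal fibroblasts, 8 were higher and 1 (Ogn) lower in the mPFC, and their summed level was 38.82 to 355.1 CPM there and 31.65 to 127.1 in the vHipp, with none of them at 0. The choroid plexus list went mostly the other way, with 2 of 10 genes higher and 5 lower in the mPFC, and a summed level of 5.816 to 34.50 CPM there (median 8.469) and 15.23 to 714.0 in the vHipp (median 24.86). Its defining marker Ttr, the transthyretin gene, was at a median of 0.272 CPM in the mPFC and 0.226 in the vHipp. Endothelial genes were higher in the mPFC for 5 of 8 and mural genes for 4 of 6, and 5 of 8 neuronal genes were lower, where 24.5% of all genes were higher and 24.4% lower. The part of these cells in the Igf2 difference was not tested, and in bulk tissue fewer cells of a type cannot be told apart from less RNA per cell. Of the Igf2 exon bases, 62.83% are shared with Gm49394 on the same strand, which was at a median of 0 CPM. H19, the maternally expressed neighbour of Igf2, did not pass (-0.45, SE 0.37, adjusted p = 0.339).

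The 3 noncoding RNAs of the chromosome 12 domain were all higher in the mPFC. Meg3 was at 4048 CPM in the lowest, 4988 at the median and 5874 in the highest mPFC library, and at 2722, 3494 and 4970 in the vHipp, with a higher mPFC level in 38 of 39 mice (log2 fold change 0.50, SE 0.038, adjusted p = 2.81e-20). Rian, a host of small nucleolar RNAs, was at 493.0, 597.3 and 745.2 CPM in the mPFC and at 320.5, 474.9 and 632.3 in the vHipp (0.33, SE 0.0352, adjusted p = 9.99e-14). Mirg was at 18.53, 25.29 and 33.28 CPM in the mPFC and at 14.33, 19.84 and 26.10 in the vHipp (0.37, SE 0.0411, adjusted p = 1.29e-12). For all 3 the ranges overlapped while most pairs went the same way, 36 of 39 mice for Rian and 35 of 39 for Mirg. Protein-coding genes of the same domain were mixed. Dlk1, which encodes a transmembrane ligand-like protein, was lower in the mPFC (-1.06, SE 0.228, adjusted p = 4.53e-05), as was Dio3, the enzyme that inactivates thyroid hormone (-0.65, SE 0.206, adjusted p = 0.00576), while Rtl1 did not pass (-0.53, SE 0.314, adjusted p = 0.163). The seventh gene of the list, Begain, was slightly higher (0.12, SE 0.0331, adjusted p = 0.00101), which brought the domain to 6 of 7 passing, 4 higher and 2 lower, beside 48.9% of all genes passing.

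In the Prader-Willi and Angelman region, Ndn and Snrpn were moderately lower in the mPFC. Ndn was at 140.3 CPM in the lowest, 173.1 at the median and 213.6 in the highest mPFC library, and at 153.01, 204.8 and 265.4 in the vHipp (-0.25, SE 0.0384, adjusted p = 3.3e-08), with a higher vHipp level in 31 of 39 mice. Snrpn was at 218.0, 265.3 and 299.8 CPM in the mPFC and at 215.2, 293.4 and 362.7 in the vHipp (-0.14, SE 0.0373, adjusted p = 0.0011), higher in the vHipp of 30 of 39 mice. Both differences were small beside the range within a region, and that of Snrpn did not pass without the CTRL and CSDS mice of the lowest numbers (-0.09, adjusted p = 0.0675). The Snrpn level is uncertain in that 27.28% of its exon bases also belong to Gm38393 and 10.0% to Snurf on the same strand. Ube3a was at 53.59, 114.6 and 172.7 CPM in the mPFC and at 62.70, 128.7 and 171.9 in the vHipp, and did not pass without pairing the regions of a mouse (-0.14, SE 0.0741, adjusted p = 0.125, 95% interval -0.28 to 0.01). With the mouse number as a block the log2 fold change was -0.13 and the adjusted p 0.00289, with a higher vHipp level in 28 of 39 mice. Of the 8 genes of this list that could be tested, 6 passed, 1 higher and 5 lower in the mPFC, beside 48.9% of all genes. Peg12 (-0.87), the ubiquitin ligase regulator Magel2 (-0.77, SE 0.115, adjusted p = 1.34e-08) and Mkrn3 (-0.40) were lower in the mPFC with Ndn and Snrpn, and Atp10a, a phospholipid flippase gene, was higher (0.41, SE 0.0682, adjusted p = 2.65e-07). Peg12 was close to 0 throughout, with a median of 0.0542 CPM in the mPFC and 0.125 in the vHipp. Snhg14, the long RNA that runs antisense through Ube3a, did not pass (0.10, SE 0.0547, adjusted p = 0.112).

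Peg3 and Kcnq1ot1 had nearly the same mean level in both regions. Peg3 was at 286.1, 462.1 and 605.0 CPM (lowest, median, highest) in the mPFC and at 330.3, 464.1 and 568.5 in the vHipp, with a log2 fold change of 0.00 and a 95% interval of -0.09 to 0.09 (adjusted p = 1.0). Kcnq1ot1 was at 19.76, 33.22 and 54.86 CPM in the mPFC and at 23.05, 30.83 and 59.42 in the vHipp (0.03, 95% interval -0.11 to 0.16, adjusted p = 0.813). The mice were split, 23 with more Peg3 and 22 with more Kcnq1ot1 in the mPFC. Neighbours of these genes nevertheless differed. Zim1, a zinc finger gene beside Peg3, was lower in the mPFC (-1.27, SE 0.062, adjusted p = 1.74e-31) and Usp29, which shares the Peg3 promoter region, did not pass (0.09, SE 0.0531, adjusted p = 0.138). Cdkn1c, a cell cycle inhibitor from the cluster that Kcnq1ot1 silences on the paternal chromosome, was higher in the mPFC (2.04, SE 0.0775, adjusted p = 1.08e-38), at 9.27 to 18.42 CPM there and 1.47 to 6.44 in the vHipp without overlap. In the Kcnq1 cluster as a whole 8 of 12 listed genes passed, 5 of them higher in the mPFC, beside 48.9% and 24.5% of all genes.

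**Figure D2:**
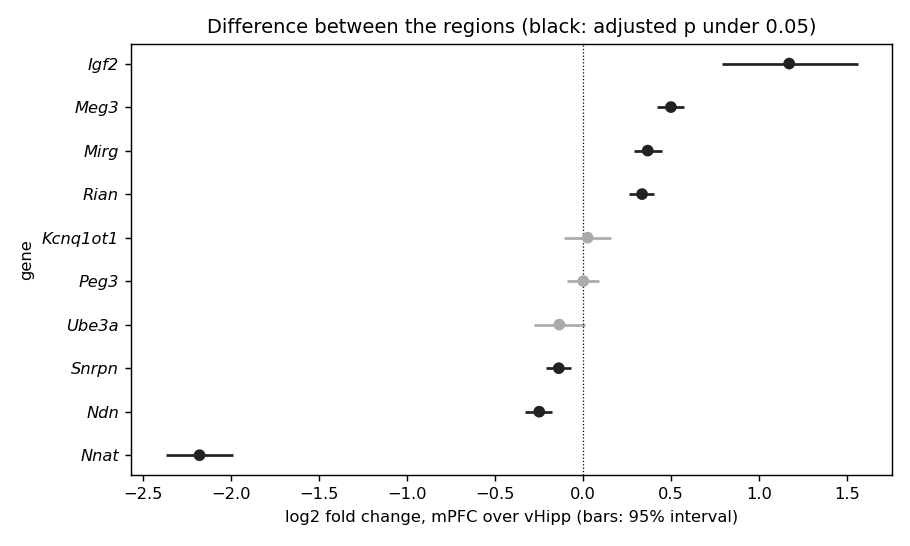
Log2 fold change of mPFC over vHipp for each imprinted gene, with points at the estimate, bars for the 95% interval and black for an adjusted p under 0.05. Nnat lies at -2.18 and Igf2 at 1.17, the chromosome 12 RNAs Meg3, Mirg and Rian at 0.33 to 0.50, and Kcnq1ot1 and Peg3 at 0.

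Across the wider lists of known imprinted genes, 48 of 71 tested genes passed between the regions (67.6%, beside 48.9% of all genes), 20 higher and 28 lower in the mPFC, from 73 listed. Among the listed genes that passed and were not members, the 10 with the largest differences included the organic cation transporters Slc22a2 (3.36, SE 0.284) and Slc22a3 (3.12, SE 0.114), both higher in the mPFC. Slc22a3 was at 2.94 to 9.18 CPM in the mPFC and at 0.205 to 1.18 in the vHipp, whereas Slc22a2 had a median of only 0.884 and 0.0601 CPM. Grb10, an adaptor of growth factor receptors that neurons express from the paternal allele, was higher in the mPFC (1.04, SE 0.0358, adjusted p = 1.19e-41), at 55.38 to 78.74 against 24.86 to 43.15 CPM. Phactr2, a phosphatase regulator, was lower (-1.05, SE 0.0619, adjusted p = 1.33e-26). Th and Phlda2 also passed (1.54 and 1.62) at medians of 0.688 CPM and 0.0441 CPM or less.

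The study set CSDS against CTRL mice separately on saline and on ketamine and within dominant or subordinate mice, with the social box in its model. It asked how treatment and social rank bear on the stress response. Rank and box are not in the labels, so the comparisons here pool all ranks without a term for the box. They rest on other sets of mice and another model than the study's. The contrasts of ketamine with saline follow from the same 4 groups of stress and treatment. In 16 comparisons within and between the regions, covering CSDS against CTRL in each treatment, ketamine against saline in each stress state, their means and their interactions, 0 genes of 28991 to 31534 tested passed by edgeR (0.0%), and so did none of the 10 imprinted genes. At an unadjusted p under 0.05 the comparisons counted 823 to 2816 genes, and DESeq2 passed at most 14 genes, none of them a member. The lowest adjusted p of a member over 160 tests was 0.568, for Mirg. An unadjusted p under 0.05 was found in 4 tests, all 4 of Kcnq1ot1, and nothing is read from them because that gene was chosen through stress contrasts of these libraries. The share of all genes with an unadjusted p under 0.05 in the mPFC was 2.94% and 5.8% for CSDS against CTRL on saline and ketamine, 3.64% and 4.32% for ketamine against saline in CTRL and CSDS mice, 5.31% for the interaction, and 3.52% and 3.07% for the mean effects of stress and ketamine. In the vHipp it was 5.57% and 5.42%, 2.88% and 2.9%, 2.84%, and 9.71% and 3.39% in the same order, and for the difference of the stress and ketamine effects between regions it was 6.86% and 3.46%.

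Kcnq1ot1 was taken from the study's most changed genes between CSDS and CTRL mice, computed from these libraries, so its values are given here as a description. They pool dominant and subordinate mice, which the study's display keeps apart. Its level was 25.19 CPM in the lowest, 32.03 at the median and 39.85 in the highest CTRL mouse on saline, and 27.05, 39.74 and 53.13 in CTRL mice on ketamine. CSDS mice were at 25.05, 32.74 and 54.86 CPM on saline and at 19.76, 27.75 and 38.10 on ketamine. The median was thus higher on ketamine than on saline among CTRL mice and lower among CSDS mice, with overlap of all 4 groups. Between the ketamine groups the log2 fold change of CSDS over CTRL was -0.42 (SE 0.135). Ketamine against saline gave 0.29 in CTRL (SE 0.131) and -0.30 in CSDS mice (SE 0.135), and the interaction was -0.59 (SE 0.188). These comparisons share groups. Under the other settings tried the difference of the ketamine groups stayed between -0.50 and -0.31. In the vHipp the group medians were 29.93 and 30.77 CPM in CTRL mice on saline and ketamine and 29.68 and 33.20 in CSDS mice. The balance of long and short genes described below also differed in its mPFC median, at a log2 ratio of 1.61 in CTRL mice on ketamine and 1.51 to 1.52 in the other groups. Its part in the Kcnq1ot1 values was not tested.

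Snhg14, another long noncoding RNA from an imprinted locus, had the smallest unadjusted p of the other listed imprinted genes in the same mPFC interaction (-0.49, SE 0.155, unadjusted p = 0.00314, adjusted p = 0.898). It was at 0.28 (SE 0.108, adjusted p = 0.997) for ketamine in CTRL and at -0.28 (SE 0.111, adjusted p = 0.83) for CSDS against CTRL on ketamine. The 2 smallest unadjusted p of listed imprinted genes outside the members belonged to scarce transcripts of the vHipp. Zfp264, a zinc finger gene near Peg3 with a median of 0.293 CPM there, was at -1.72 for ketamine against saline in CTRL mice (SE 0.485, unadjusted p = 0.000982, adjusted p = 1.0). The insulin gene Ins2, beside Igf2, was at -3.74 in CSDS mice (SE 1.11, unadjusted p = 0.00181, adjusted p = 1.0), with a median of 0 and a highest value of 0.385 CPM. The counts of imprinted genes with an unadjusted p under 0.05 were 0 to 5 of 70 or 71 tested per comparison, with none passing the adjusted threshold. Median log2 fold changes over the 10 members were between -0.04 and 0.06 in all 16 comparisons.

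**Figure D3:**
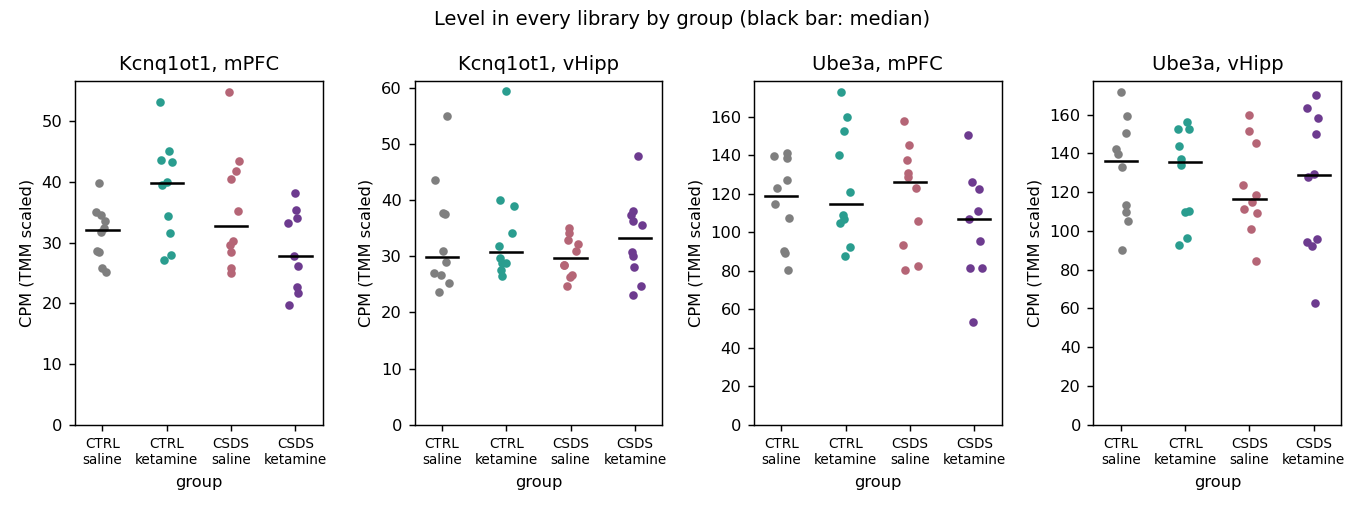
CPM of Kcnq1ot1 and Ube3a in every library by region and group, with black bars at the medians and linear axes from 0. Medians of Kcnq1ot1 in the mPFC are 32.03, 39.74, 32.74 and 27.75 CPM from left to right, and the points of all groups overlap in each panel.

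Ube3a in the mPFC was at 80.12, 118.9 and 141.5 CPM (lowest, median, highest) in CTRL mice on saline and at 87.57, 114.8 and 172.7 on ketamine, and at 80.59, 125.9 and 157.6 in CSDS mice on saline and 53.59, 106.8 and 150.7 on ketamine. Its smallest unadjusted p among the stress and ketamine comparisons was between the ketamine groups of the mPFC (-0.26, SE 0.147, unadjusted p = 0.0804, adjusted p = 0.83). The lowest value belonged to mouse 1. Nnat in the vHipp had group medians of 270.8 CPM in CTRL mice on saline, 259.9 on ketamine, 270.9 in CSDS mice on saline and 335.3 on ketamine, with a lowest and highest value of 182.1 and 518.5 in the last of these. Its interaction was 0.49 (SE 0.256, unadjusted p = 0.0624, adjusted p = 1.0), and the groups overlapped throughout.

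For the other members, the estimates are given by their range. Over the 8 comparisons of CSDS with CTRL in each treatment and of ketamine with saline in each stress state, in both regions, the log2 fold changes of Snrpn ran from -0.02 to 0.09, those of Meg3 from -0.03 to 0.11 and those of Rian from -0.03 to 0.09. The outermost bounds of their 95% intervals were -0.19 and 0.25 for Snrpn, -0.17 and 0.25 for Meg3 and -0.16 and 0.24 for Rian. Snrpn was taken from the study's most changed genes in these libraries, so its values are given as a description. The intervals treat mice as independent although the study kept them in shared social boxes, so for stress they may be too narrow. Mirg was at 0.02 to 0.13 (outermost bounds -0.14 and 0.29), Ndn at -0.10 to 0.07 (-0.26 and 0.22) and Peg3 at -0.04 to 0.12 (-0.24 and 0.31). Igf2 was far less certain. Its estimates were -0.64 to -0.01 with outermost bounds of -1.41 and 0.74, and its mean over the stress groups was -0.55 for ketamine against saline in the vHipp (SE 0.271, unadjusted p = 0.0508, adjusted p = 1.0). For no member did the stress or ketamine effect pass as different between the regions (lowest adjusted p 0.867, for Nnat).

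**Figure D4:**
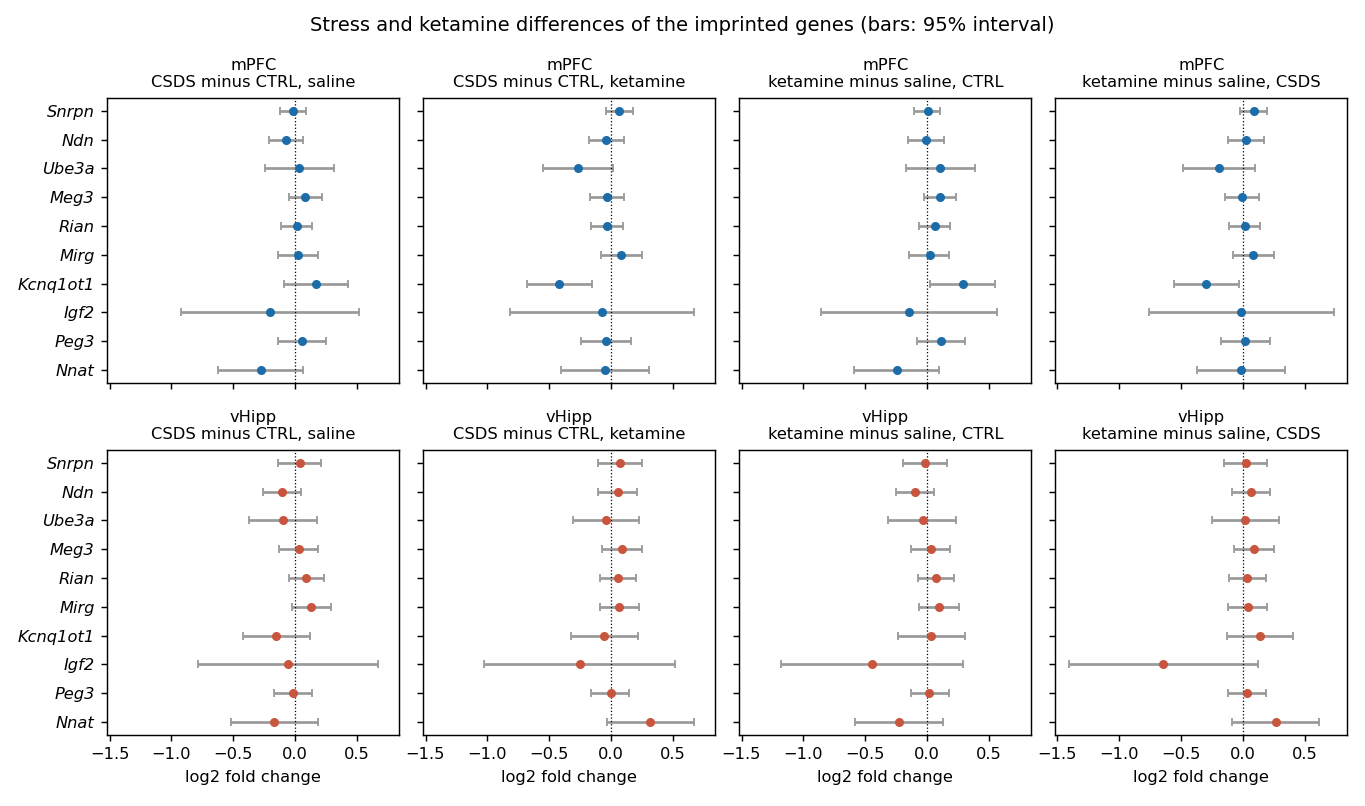
Log2 fold changes of the imprinted genes in 8 stress and ketamine comparisons, mPFC above and vHipp below, with points at the estimate and bars for the 95% interval. Kcnq1ot1, which was chosen through stress contrasts of these libraries, lies at -0.42 between the ketamine groups of the mPFC, and the bars of Igf2 are the widest.

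Variation among mice of the same group was examined next, as correlations of log2(CPM + 0.5) after the mean of each group was subtracted, with permutation p-values and adjustment over each family of relations. Between the regions of a mouse, 4 of 10 genes passed. Over 15184 genes of at least 1 CPM on average in both regions the median of the same r was 0.294, so positive values were common: 2.79% of genes were at or above the r of Ube3a, 24.0% at or above that of Peg3 and 27.5% at or above that of Nnat, and 0.0659% at or below that of Ndn. Ube3a was tightest (Pearson r = 0.756, Spearman rho = 0.761, n = 39, both permutation p = 1e-05, the smallest the resampling can give, adjusted p = 0.0001), with r = 0.671 without the 2 most distant mice and 0.577 within runs of 4 mouse numbers. A mouse with high Ube3a in 1 region therefore tended to have it in the other. Nnat (r = 0.455, rho = 0.415, permutation p = 0.00385 and 0.00938, adjusted p = 0.00962 and 0.0313) held at 0.40 without 2 mice and at 0.618 within runs. Peg3 passed by r but not by rho (r = 0.484, rho = 0.312, permutation p = 0.00227 and 0.0542, adjusted p = 0.00962 and 0.136), with 0.363 without 2 mice and 0.727 within runs. Ndn was inversely related (r = -0.457, rho = -0.422, permutation p = 0.00363 and 0.00821, adjusted p = 0.00962 and 0.0313), but within runs its r was 0.0475. The runs are consecutive mouse numbers, which the labels do not name as batches. The 6 other genes, Snrpn, Meg3, Rian, Mirg, Kcnq1ot1 and Igf2, did not pass, with r of -0.271 to 0.205. For Meg3, Rian and Mirg (-0.242, -0.271 and -0.242) 0.929%, 0.619% and 0.955% of genes were at or below these values.

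Ube3a, Peg3 and, in the mPFC, Meg3 also moved with the balance of long and short genes in the libraries. The log2 ratio of the summed CPM of 3796 genes with long exon models (6719 bases or more) to that of 3795 genes with short ones (2545 bases or less), the members left out of both sums, was 1.09 to 1.69 in the mPFC and 0.98 to 1.71 in the vHipp, lowest within the mPFC in mouse 1 and within the vHipp in mouse 9. Of 20 relations of a member with this ratio in a region, 5 passed, all 5 of members over the limit for long genes, as 6 of the 10 are. An r at least as far from 0 as the smallest that passed (0.444) was found in the mPFC for 28.5% of 15184 genes and in the vHipp for 27.1%, and for 42.6% and 41.6% of the long genes, which are themselves part of the sum. The count of members is therefore near that of genes in general. It correlated with Ube3a at r = 0.628 in the mPFC and 0.530 in the vHipp (rho = 0.477 and 0.578, permutation p = 4e-05 and 0.0004, adjusted p = 0.000267 and 0.002). For Peg3 it was r = 0.708 and 0.648 (rho = 0.480 and 0.436, permutation p = 2e-05 and 1e-05, adjusted p = 0.0002 for both). Without the 2 most distant mice these values were 0.461 and 0.522 for Ube3a and 0.549 and 0.514 for Peg3. Meg3 was related to it in the mPFC (r = 0.444, rho = 0.512, permutation p = 0.0043 and 0.00097, adjusted p = 0.0172, 0.456 without 2 mice) and did not pass in the vHipp (r = 0.219, adjusted p = 0.316). The ratio was itself related between the regions of a mouse (r = 0.676, rho = 0.617, n = 39, permutation p = 1e-05 and 5e-05, 0.544 without 2 mice). Kcnq1ot1 had r of 0.346 and 0.242 with it (permutation p = 0.0297 and 0.131, adjusted p = 0.085 and 0.262), with rho of 0.446 and 0.244 (permutation p = 0.00479 and 0.131). The median of the ratio in the mPFC was 1.51 in CTRL mice on saline, 1.61 in CTRL mice on ketamine and 1.52 in both CSDS groups. In the vHipp it was 1.57 and 1.55 in CTRL mice on saline and ketamine and 1.47 and 1.45 in CSDS mice. The part of this ratio in the relations of Ube3a, Peg3 and Meg3 was not tested.

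Among the members, 44 of 90 relations within a region passed, 36 of them positive. In the mPFC 51.1% of member pairs passed, the smallest at an absolute r of 0.369, a size that 19.9% of all pairs of 15184 genes reached. In the vHipp 46.7% passed, from 0.363, which 24.0% of all pairs reached. The RNAs of the chromosome 12 domain moved together. Meg3 and Rian had r = 0.727 in the mPFC and 0.803 in the vHipp (adjusted p = 8.18e-05 for both), Meg3 and Mirg 0.656 and 0.774, and Rian and Mirg 0.693 and 0.716. Among 15183 genes of at least 1 CPM on average, Rian ranked 14 in the mPFC and 2 in the vHipp for likeness to Meg3, and Mirg ranked 43 and 3. Values of this size were not limited to the domain, since Rian had r = 0.757 and 0.494 with Peg3 and 0.704 and 0.639 with Snrpn. Within runs of mouse numbers the Meg3 and Rian values were 0.679 and 0.872.

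Snrpn and Ndn moved together (r = 0.639 and 0.758 in the mPFC and vHipp), although many genes were more like Snrpn, with Ndn at rank 425 and 537. Snrpn and Ube3a, which lie closer to each other on chromosome 7, did not pass (-0.0953 and -0.0601, adjusted p = 0.726 and 0.814). Ube3a had r of 0.644 and 0.666 with Snhg14, which ranked 1551 and 1103 among the same genes. Of the Ube3a exon bases, 8.74% overlap Snhg14 on the opposite strand and the use of strand in counting is not given in the sources used here, so their reads may not be fully separate. Ube3a was also related to Peg3 (0.572 and 0.623). Peg3 and its neighbour Usp29 had r of 0.814 and 0.667 (ranks 78 and 598), and Nnat and Blcap 0.426 and 0.594. These values are descriptions of libraries that share depth, scaling and tissue makeup.

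The genes most like each member, by the mean of r over both regions, were mostly not imprinted. Snhg11, a neuronal noncoding RNA, was nearest to Meg3 (0.875), ahead of Rian and Mirg, and Meg3 was nearest to Mirg (0.715). Ube3a was nearest to Fam126b (0.975), Impad1 and Scai (both 0.967), and Peg3 to Ttc39b (0.854), Myo5a and Dzank1 (both 0.845). Snrpn was nearest to Stmn3 and Got1 (both 0.897) and Mdh1 (0.895), and Ndn to Rwdd2a, Mllt11 and Zwint (0.811 to 0.826). Rian was nearest to Atp1b1, Snhg11 and Armcx1 (0.773 to 0.800), and Kcnq1ot1 to B230206I08Rik, D10Wsu102e and Gm26871 (0.729 to 0.740). Igf2 stood apart with Slc13a4, a sulfate transporter, the laminin chain Lama1 and the connexin Gjb2 (0.819 to 0.852). Nnat had no close companion, the nearest being Idh1 at 0.670.

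Markers of cell types moved with several members. Igf2 followed the sum of the 10 meningeal fibroblast genes in the mPFC (r = 0.838, rho = 0.853, n = 39, both permutation p = 1e-05, adjusted p = 0.000113, 0.819 without 2 mice, 0.890 within runs) and less closely in the vHipp (r = 0.507, adjusted p = 0.00375, 0.607 within runs). With endothelial genes its r was 0.840 in the mPFC and 0.470 in the vHipp, and with mural genes 0.812 and 0.562. The vHipp relation to endothelial genes did not pass without the library of mouse 11 (0.352, adjusted p = 0.0842), and choroid plexus genes did not pass in either region (0.245 and 0.276). Snrpn followed the opposite pole, rising with the sum of 8 neuronal genes (r = 0.752 in the mPFC and 0.834 in the vHipp, adjusted p = 0.000113 for both) and falling with the meningeal sum in the mPFC (-0.817). Rian, Ndn and Peg3 in the mPFC had r of 0.779, 0.609 and 0.801 with the neuronal sum, and -0.773, -0.690 and -0.577 with the meningeal sum. In the vHipp the neuronal sum was related to Rian (0.496, adjusted p = 0.00375) and Ndn (0.576, adjusted p = 0.0008) but did not pass for Peg3 (0.135, adjusted p = 0.591), and the meningeal sum did not pass for Snrpn (-0.269, adjusted p = 0.204), Ndn (-0.11), Rian (0.0436) or Peg3 (0.117). Kcnq1ot1 passed with 1 of 13 lists in 1 region only (hippocampal genes in the vHipp, r = 0.430, adjusted p = 0.0185). Other lists, among them astrocyte and microglial genes, were compared as well and are not detailed here. Over all 13 lists 84 of 260 relations passed, 26 positive and 58 negative, and 28 of the 84 were in the vHipp, where 13 were positive. In the mPFC these were 43.1% of the relations, from an absolute r of 0.389, a size reached in 19.8% of the relations of all 15184 genes with the 13 sums, and in the vHipp 21.5%, from 0.376, which was reached in 25.4%. With the neuronal sum 7 of 10 members passed in the mPFC and 5 in the vHipp, beside 34.0% and 42.4% of all genes at those sizes, and with the meningeal sum 7 and 1, beside 26.7% and 12.1%. The vHipp counts are thus near those of genes in general. No marker sum passed between the stress and ketamine groups (lowest adjusted p 0.99, permutation test).

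**Figure D5:**
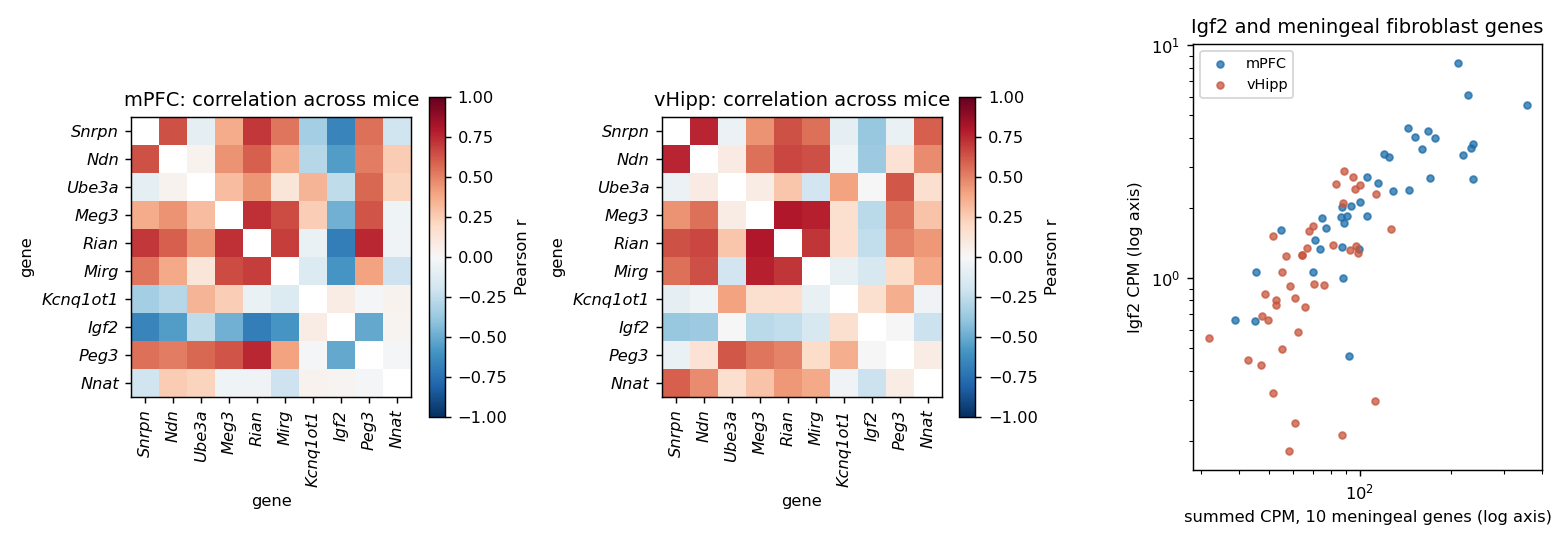
Left and middle, Pearson r between the imprinted genes across 39 mPFC and 40 vHipp libraries, computed on group-centred log2 CPM, where red is positive and blue negative. Right, Igf2 CPM against the summed CPM of 10 meningeal fibroblast genes (both log axes) in each library, with group-centred r of 0.838 (mPFC) and 0.507 (vHipp).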

How the data were processed

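The deposited table holds raw counts per Ensembl gene in 79 libraries, made by the authors from paired NovaSeq reads of stranded mRNA libraries. Per the labels, bcl2fastq 2.20.0.422 and build GRCm38 were used, whereas the aligner, the counter and its strand setting are not given in the sources used here. The authors had excluded libraries with a low RNA integrity number and 1 outlying library. CPM values here are counts scaled with TMM factors.

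Genes with a total over 10 counts and detected in over 3 libraries were fitted with edgeR 4.0.16 (R 4.3.3, quasi-likelihood, two-sided, Benjamini-Hochberg, threshold 0.05), each region's 4 groups together for stress and ketamine and all 8 for the regions. The authors' covariate for the social box is not in the labels and was not used, so the main fits treat mice of a box as independent. Runs of 4 consecutive mouse numbers served as candidate batches. A run holds only CSDS or only CTRL mice, so run and stress cannot be told apart. A CTRL and a CSDS run made up each of 5 sets. Mouse numbers pair the regions of 39 animals: deviations from group means over 15184 genes correlated at a median of 0.28 within a mouse and -0.00221 between mice. The lowest value within a mouse was -0.0217, and for 20 of the 39 the mPFC was closest to the vHipp of the same number. Correlations used log2(CPM + 0.5), 100000 resamples. SE values are the log2 fold change over the square root of the F statistic, and 95% intervals are approximate.

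On simulated counts for the mPFC ketamine groups (28506 genes), 82% of 50 genes with 1.5-fold changes and 100% of those with 2-fold changes were recovered, with 3 false calls, and DESeq2 made 17 on the same counts. The simulated mice were independent, with an assumed spread. Recovery of smaller changes, the size of most stress and ketamine estimates of the members, is not given by these figures. For the regions, edgeR made 12 false calls among 31087 genes without and 2 among 31063 with the mouse block. No 2 of the 351 library pairs of a group were identical. Members and lists were chosen with earlier results of these data known: beside the members, the text names genes from 2 rules on the imprinted lists (the 10 largest regional differences among those that passed and, in each other comparison, up to 3 genes with the smallest unadjusted p, of which the text gives Snhg14, Zfp264 and Ins2), genes that overlap or neighbour members, and the 3 genes most correlated with each. Alternatives were another normalization, other filters, DESeq2 1.42.0, set, run or mouse as a term, only the groups compared, and leaving out sets or libraries. Depth limits precision through counting error mainly for Igf2. The table gave no allele information.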

Additional observations from a re-analysis of the deposited data

Results flagged for a closer look

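In 5 of 80 groups of a member in a region, the highest mouse lay further from the rest than Dixon's 95% limit allows, where chance gives about 4. Kcnq1ot1 reached 59.4 CPM in the vHipp of mouse 34 (CTRL, ketamine), with the nearest mouse at 40.1 and a group median of 30.8. Igf2 reached 8.35 CPM in the mPFC of mouse 21 (CTRL, ketamine), with the nearest at 4.0 and a median of 1.7, and 2.51 CPM in the vHipp of mouse 11 (CSDS, ketamine), with the nearest at 1.32 and a median of 0.711. Nnat reached 131.38 CPM in the mPFC of mouse 11 (CSDS, ketamine), with the nearest at 75.9 and a median of 53.0, and 143.22 CPM in the mPFC of mouse 35 (CTRL, saline), with the nearest at 95.97 and a median of 65.5. Mouse 21 also led its group in the mPFC sum of meningeal fibroblast genes (210.1 CPM), and in the vHipp of mouse 11 the endothelial sum was the highest of its region, at 405.8 CPM. The part of these in the Igf2 values was not tested.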

How the results depend on the processing

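Of the results that answer a comparison, 256 alternative values stayed within the limits set, most of them counts of called genes that were 0 and stayed 0. A small change in a count, such as from 7 to 8 members, was within these limits. The other 2 values moved: DESeq2 called 3 genes for CSDS against CTRL on saline in the vHipp and 14 genes for the mean of treatments there, where edgeR called 0. The simulated counts, on which DESeq2 made 17 false calls and edgeR 3, were of the mPFC ketamine groups. They are of another region and comparison and cannot judge the vHipp calls. The cause of the difference between the tools was not tested. No member was called for stress or ketamine under any alternative. In the paired fit, with the mouse number as a block, Ube3a became significant between the regions (-0.129, adjusted p = 0.00289), 8 members passed instead of 7, and the block changed no other call of a member. Snrpn was not called without the first set of mice (-0.0878, adjusted p = 0.0675). Of the 160 uncalled stress and ketamine estimates of members, 78 changed sign under at least 1 setting, most widely for Igf2 (for example from -0.82 to 0.17 for ketamine in CTRL mice in the mPFC and from -0.35 to 0.32 for CSDS on saline in the vHipp). Among the regional differences of members and the correlations recomputed under each setting, signs turned for Kcnq1ot1 between the regions (-0.00917 without set 4), Peg3 between the regions (-0.00114 without set 3, -0.0155 without set 5, -0.00133 and -0.0101 without the vHipp of mouse 11 or 9), the Igf2 correlation between regions (0.0423 with no centring on groups, 0.00994 without the vHipp of mouse 9) and the Snrpn and Ube3a correlation in the vHipp (0.0701 without mouse 1, 0.00512 without the vHipp of mouse 11). The Ndn correlation between regions went from -0.457 to 0.0475 within runs of mouse numbers, an alternative chosen after seeing the data, as were those without a mouse. The Snrpn and Igf2 correlation in the vHipp was not called with CPM by library total (-0.364), without mouse 1 (-0.361) or without the vHipp of mouse 11 (-0.282), and that of Igf2 with endothelial genes in the vHipp not with no centring on groups (0.322). Depth limits Igf2, whose counts were as low as 3, more than any other member.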

Other observations

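Genes that write, read or maintain the methylation imprint were listed apart from the members. Between the regions 7 of 11 tested genes passed (48.9% of all genes did), out of 12 listed. The maintenance methyltransferase Dnmt1 was higher in the mPFC (log2 fold change 0.46, SE 0.0261, adjusted p = 1.76e-27 by edgeR), as were the de novo methyltransferase Dnmt3a (0.29, SE 0.0257, adjusted p = 6.85e-17) and the dioxygenases Tet2 (0.37, SE 0.0361, adjusted p = 5e-15) and Tet1 (0.24, SE 0.0606, adjusted p = 0.000534). Lower in the mPFC were Zfp57, whose motif was counted in the promoters (-0.32, SE 0.0578, adjusted p = 1.75e-06), its partner Trim28 (-0.15, SE 0.0223, adjusted p = 7.44e-09) and the insulator protein gene Ctcf (-0.08, SE 0.0208, adjusted p = 0.000821). None of the 11 genes passed in a stress or ketamine comparison. Methylation itself was not measured in these libraries.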
